A study of Mus musculus with 12 samples.

Results

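The ATP-binding cassette (ABC) transporter genes of mouse were described in 4 populations of epidermal cells sorted from resting (telogen) back skin. Members were chosen by symbol alone, as genes in the probe annotation named Abc with a subfamily letter from a to g and a number. Of the 17853 genes measured 47 had such a symbol, and 46 of them are described here. The symbol rule reads no expression value, but the family was picked with earlier results of these data known, so the tests below set differences against the spread between arrays and are no independent support. Adjusted p-values were computed over all 17853 genes.

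The study compared cells that do or do not express a reporter for the transcription factor Gata6. All 12 samples came from age- and sex-matched female mice of C57BL6/CBA background that carried the Gata6-mtomato reporter, so every population, including those without reporter signal, has this genotype. Cells were sorted by the Tomato reporter, by integrin alpha 6 (ITGA6), which sits on cells attached to the basement membrane, and by CD34, a surface marker of the mouse hair follicle bulge. The 4 populations, with 3 biological replicates each, were Gata6+Itga6+ cells (Tomato+ and ITGA6+), Gata6+Itga6- cells (Tomato+ and ITGA6-), CD34+ cells (CD34+ and ITGA6+) and remaining basal cells (ITGA6+ and CD34-). The study's design describes both of the latter as Gata6-, while the labels of single samples do not name Gata6 for them. No drug or other treatment is named. Age, the number of mice behind a replicate and whether 1 mouse gave several populations were not given in the sources used here. The reporter marks cells in which Gata6 is active and not a cell type, and the remaining basal population is defined by what it lacks. RNA was extracted with a micro-scale column kit, amplified with a kit made for very small amounts of RNA and hybridised to exon arrays.

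ABC proteins bind and hydrolyse ATP, and most use it to move a substrate across a membrane. Subfamily A carries lipids and sterols. Subfamily B includes P-glycoprotein drug pumps and mitochondrial transporters. Members of subfamily C export conjugated organic anions, nucleotides and prostaglandins, or regulate potassium channels. Subfamily D imports fatty acyl groups into peroxisomes, apart from Abcd4, which takes part in cobalamin export from lysosomes. Subfamily G exports sterols and drugs. Proteins of subfamilies E and F have no membrane part and act in ribosome recycling and translation. In tissue stem cells the family is known for the dye efflux that defines side populations.

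The promoters of 4 members are shown because their genes were not all highest in the same population, so that they can be read beside the levels. Abca1 had its highest level in CD34+ cells, Abcc5 and Abcb1b in remaining basal cells and Abca3 in Gata6+Itga6- cells. Each sequence is the 250 bases before the annotated start on the gene's own strand, 5′ to 3′, from RefSeq on GRCm38.p6. Capitals mark matches to any of 7 short motifs searched on both strands. The positions are chr4:53159896-53160145 on the minus strand for Abca1, chr16:20426395-20426644 on the minus strand for Abcc5, chr5:8797897-8798146 on the plus strand for Abcb1b and chr17:24351773-24352022 on the plus strand for Abca3.
Abca1: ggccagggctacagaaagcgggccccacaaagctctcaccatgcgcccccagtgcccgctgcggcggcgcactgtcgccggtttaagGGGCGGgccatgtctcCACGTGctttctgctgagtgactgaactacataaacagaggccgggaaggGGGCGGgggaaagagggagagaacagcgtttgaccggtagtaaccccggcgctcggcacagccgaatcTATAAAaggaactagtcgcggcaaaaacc
Abcc5: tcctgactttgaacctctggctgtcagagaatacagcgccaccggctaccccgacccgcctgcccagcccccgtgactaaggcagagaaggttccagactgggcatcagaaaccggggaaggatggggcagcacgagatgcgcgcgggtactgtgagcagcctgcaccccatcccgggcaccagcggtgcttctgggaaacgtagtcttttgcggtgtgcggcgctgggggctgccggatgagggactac
Abcb1b: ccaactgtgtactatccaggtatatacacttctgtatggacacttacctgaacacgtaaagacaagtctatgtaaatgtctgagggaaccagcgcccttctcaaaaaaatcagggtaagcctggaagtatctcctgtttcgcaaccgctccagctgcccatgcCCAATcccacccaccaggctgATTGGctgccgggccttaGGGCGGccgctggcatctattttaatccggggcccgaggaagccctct
Abca3: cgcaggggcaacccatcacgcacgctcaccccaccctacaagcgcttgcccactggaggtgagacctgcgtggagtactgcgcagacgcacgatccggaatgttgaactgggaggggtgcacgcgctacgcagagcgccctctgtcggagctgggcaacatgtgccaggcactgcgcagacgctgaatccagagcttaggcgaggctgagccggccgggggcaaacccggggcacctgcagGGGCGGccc
The letters searched were AGATAA for a GATA motif and CACGTG for an E-box of basic helix-loop-helix factors. For the core promoter they were GGGCGG for the GC box bound by Sp factors, TATAAA for the TATA box and the name itself for the CCAAT box. The core of the antioxidant response element was written TGACNNNGC, with N for any base, and the hexamer bound by nuclear receptors was written AGGTCA. The matches in the 4 windows shown do not overlap each other. In the Abca1 window the TATA box began 29 bases before the start, the E-box 147 bases before it and GC boxes 163 and 97 bases before it. The Abcb1b window held a CCAAT box on each strand and 1 GC box, the Abca3 window held 1 GC box, and the Abcc5 window held none of the 7 motifs. Of all 32851 windows of this length, 12.4% held the TATA box, 6.0% the E-box, 32.7% the GC box and 33.8% the CCAAT box. The GATA motif lay in 10.0% of all windows, the antioxidant core in 10.2% and the nuclear receptor hexamer in 14.0%. Over the 36 members with at least 1 window, 43 windows in all, the shares were 9.3% for the GATA motif, 46.5% for the GC box and 27.9% for the CCAAT box. The E-box and the TATA box were each found in 11.6% of these windows, the antioxidant core in 9.3% and the hexamer in 16.3%. Of the 8 members that differed between populations, 7 had a window. Abcc1 had none in the table. The median GC content was 58.0% over the members' windows and 52.4% over all windows.

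Each gene was read by many exon probe sets, and its level is the median of log2(intensity + 1) over them. The 46 members had 1404 probe sets, from 13 to 72 each with a median of 30, against a median of 10 over all genes. Array precision is limited by the number of arrays. The upper quartile of intensity ran from 12.2 to 17.8 over the 12 arrays. As a reference for no expression, the 95th percentile of the mean level of 1144 olfactory and vomeronasal receptor genes, which are used mostly in the nose, was 2.42. This is called the level of silent genes. The sort genes followed the gates. The level of Gata6 was 5.84 ± 0.046 (SD, n = 3) in Gata6+Itga6- cells, 4.39 ± 0.34 in Gata6+Itga6+ cells, 2.84 ± 0.29 in CD34+ cells and 2.73 ± 0.34 in remaining basal cells, so that the last 2 means, too, exceeded the level of silent genes. Cd34 was at 7.95 ± 0.033 in CD34+ cells and between 1.66 and 1.96 on average in the other 3 populations. Itga6 was at 6.02 ± 0.31 in Gata6+Itga6- cells and at 7.28 ± 0.13 in Gata6+Itga6+ cells. All 7 basal keratinocyte markers (Krt5, Krt14, Itga6, Itgb4, Itgb1, Col17a1 and Trp63) were above the level of silent genes in every population, and their mean was lowest in Gata6+Itga6- cells. In bulk populations a higher level cannot be told apart from a larger share of cells that express the gene.

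Markers of other cell types that the sort could hold were also read. None of 8 endothelial markers exceeded the level of silent genes in any population. Of 8 melanocyte markers, Mitf, Mlana and Sox10 did so in CD34+ and in Gata6+Itga6+ cells. Mitf and Mlana did so in Gata6+Itga6- cells, and Mitf alone in remaining basal cells. The list's mean over its genes ran from 2.42 to 2.53 on the 3 CD34+ arrays and 2.16 to 2.23 on the Gata6+Itga6+ arrays. It was 2.13 to 2.27 on the Gata6+Itga6- arrays and 2.00 to 2.08 in remaining basal cells. Dct, Tyr, Tyrp1, Pmel and Kit were under the level of silent genes in all 4 populations. Of 8 fibroblast markers, Col1a1 and Col1a2 exceeded it in CD34+ cells only, where the list's mean was 1.92 to 1.97 against 1.75 to 1.83 elsewhere. Of 11 Langerhans cell and macrophage markers, Epcam, Cx3cr1 and H2-Ab1 exceeded it in at least 1 population, and the list's mean was highest, 2.43 to 2.56, in Gata6+Itga6- cells. Cd207 and Ptprc were under it in all populations. Of 5 T cell markers measured, Thy1 exceeded it in remaining basal cells at 3.88, in CD34+ cells at 2.54 and in Gata6+Itga6- cells at 2.43, and Cd3e at 2.73 and Cd3g at 2.48 exceeded it in Gata6+Itga6- cells. The mean over these 5 was 2.04 to 2.45 on the remaining basal arrays, 2.00 to 2.45 on the Gata6+Itga6- arrays, 1.73 to 2.12 on the CD34+ arrays and 1.72 to 1.94 on the Gata6+Itga6+ arrays. Of 8 pericyte and smooth muscle markers, Cspg4 was highest in CD34+ cells at 4.67 and Notch3 in Gata6+Itga6- cells at 3.88, while Rgs5 and Acta2 were under the level of silent genes in every population. The mean over 9 measured markers of spinous and granular keratinocytes ran from 7.25 to 7.35 on the Gata6+Itga6- arrays, 6.07 to 6.57 on the Gata6+Itga6+ arrays, 5.09 to 5.48 on the remaining basal arrays and 3.62 to 4.11 on the CD34+ arrays. Over 12 sebaceous markers it lay between 2.09 and 2.54 on all arrays. The part of these cells in the differences below was not tested.

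Most ABC genes were near or under the level of silent genes. In at least 1 population, 16 of 46 members exceeded it, which is 34.8% of members against 52.1% of all genes. These were Abca1, Abca2, Abca3 and Abca7, Abcb1b and Abcb8, Abcc1, Abcc5 and Abcc10, Abcd3 and Abcd4, Abce1, Abcf1, Abcf2 and Abcf3, and Abcg1. Subfamily A contributed 4 of its 14 members, B 2 of 9, C 3 of 10, D 2 of 3 and G 1 of 6, while the members of E and F, which are not membrane transporters, were all above it. The highest population means of the other 30 members ran from 1.40 to 2.40. Among those 30 were the P-glycoprotein Abcb1a, the side population transporter Abcg2, the bile acid pump Abcb11, the retinal transporter Abca4, the conjugate pumps Abcc2 and Abcc3 and the sterol exporters Abcg5 and Abcg8. A median under this level does not show that a gene was silent, since 28 of the 30 had at least 1 probe set above it. The difference between a member's highest and lowest population mean had a median of 0.20, against 0.35 over all genes.

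**Figure D1:**
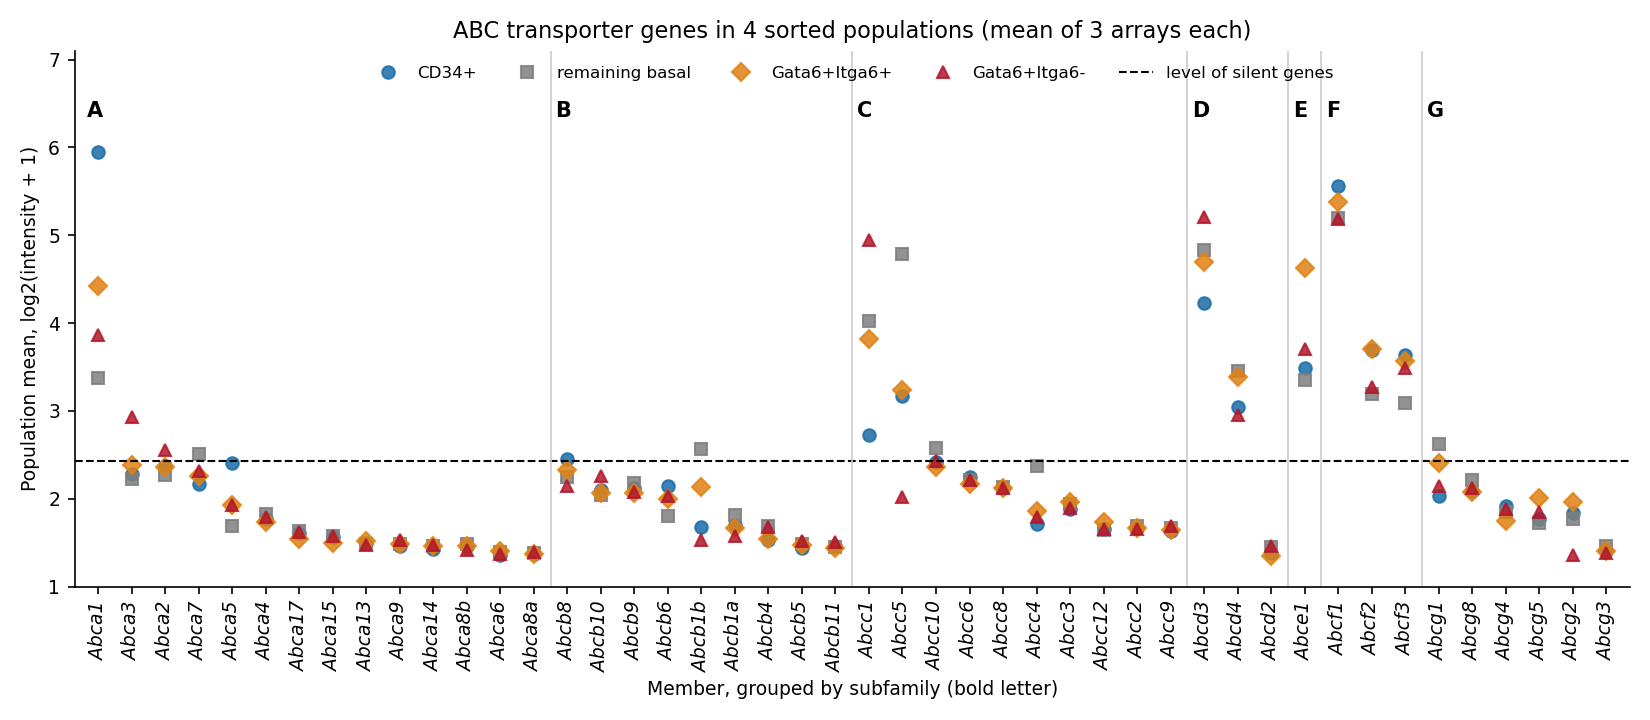
Population means of the 46 ABC genes on the log2(intensity + 1) scale, 1 symbol per population (mean of 3 arrays), with members grouped by subfamily and the level of silent genes (2.42) as a dashed line. Abca1, Abcc1 and Abcc5 show wide gaps between populations, and most members of subfamilies A, B, C and G lie under the line in all 4.

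Across the 6 pairs of populations, 8 members passed the test in at least 1 pair (limma, adjusted p under 0.05), with 18 calls in all. The pairs share arrays and are not independent of each other. When each gene was read by its brightest probe set in place of the median over probe sets, 11 of the 18 calls were lost and 1 changed sign. The 6 that held were Abca3 in its 3 pairs, Abcb1b between CD34+ and remaining basal cells, Abcc1 between Gata6+Itga6- and CD34+ cells and Abcc5 between Gata6+Itga6- and remaining basal cells. With only the 2 compared populations in the fit, 8 of the 18 calls were lost. Between CD34+ and remaining basal cells 6 of 46 members (13.0%) were called, against 5.00% of all genes. Abca1 and Abca5 were higher in CD34+ cells, and Abcb1b, Abcc1, Abcc4 and Abcc5 were lower. Between Gata6+Itga6- and remaining basal cells 5 members (10.9%) were called, against 5.11% of all genes, with Abca3 and Abcc1 higher and Abcb1b, Abcc4 and Abcc5 lower in Gata6+Itga6- cells. Without Gata6+Itga6- replicate 3 this count was 3. Between Gata6+Itga6- and CD34+ cells 4 members (8.70%) were called, against 7.96% of all genes, a share near the background, with Abca3, Abcc1 and Abcd3 higher and Abca1 lower in Gata6+Itga6- cells. Between Gata6+Itga6- and Gata6+Itga6+ cells 2 members (4.35%) were called against 3.18% of all genes, Abca3 and Abcc1, both higher in Gata6+Itga6- cells. That count of 2 was 0 without Gata6+Itga6- replicate 2 and 4 without remaining basal replicate 3, and it was 1 when CD34+ replicate 1 or 2, remaining basal replicate 1, Gata6+Itga6+ replicate 1 or 3, or Gata6+Itga6- replicate 1 or 3 was left out.

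The comparisons of Gata6+Itga6+ cells with the other 2 basal populations had the fewest called members. Between Gata6+Itga6+ and CD34+ cells 1 member (2.17%) was called, Abcc1, which was higher in Gata6+Itga6+ cells, against 4.59% of all genes. The count was 2 without Gata6+Itga6- replicate 1 or 2. Between Gata6+Itga6+ and remaining basal cells limma called 0 of 46 members, against 1.36% of all genes, and 6 members had an unadjusted p under 0.05. Without remaining basal replicate 1 the count was 2, and it was 1 without remaining basal replicate 3 or Gata6+Itga6+ replicate 2. The median log2 change over the 46 members lay between -0.02 and 0.01 in the 6 pairs, against -0.03 to 0.04 over all genes, and the median size of a change was 0.064 to 0.098 for members and 0.15 to 0.17 for all genes.

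Abca1, which loads cholesterol and phospholipid onto apolipoproteins, was highest in CD34+ cells. On the log2(intensity + 1) scale it was at 5.86, 5.75 and 6.25 on the 3 CD34+ arrays, 3.50, 2.94 and 3.69 on the remaining basal arrays, 3.92, 4.33 and 5.02 on the Gata6+Itga6+ arrays and 3.16, 4.60 and 3.83 on the Gata6+Itga6- arrays. Every CD34+ array was above every other array, and the arrays of Gata6+Itga6- cells overlapped those of the other 2 populations. Relative to remaining basal cells the log2 change was 2.58 (SE 0.38, adjusted p = 0.00257), a 5.96-fold difference. Gata6+Itga6- cells were 4.25-fold lower than CD34+ cells (log2 change -2.09, SE 0.38, adjusted p = 0.00627). Both calls held without any 1 of the 12 arrays, but with the brightest probe set the changes were 2.38 (adjusted p = 0.0765) and -1.29 (0.344) and not called. The step from CD34+ to Gata6+Itga6+ cells, a log2 change of -1.53 (SE 0.38), had an adjusted p of 0.0502 and was not called. It was called without Gata6+Itga6+ replicate 3 (0.0388) and without Gata6+Itga6- replicate 1 (0.0314) or 2 (0.0269). Either other pseudocount, the mean of probe sets, only bright probe sets and quantile normalization (0.0118) also called it. So did dim genes left out, array brightness as covariate and either block, but not the brightest probe set or the 2 populations alone. Of all its 35 probe sets, 34 read higher in CD34+ than in remaining basal cells, 30 of them by at least 1 on the log2 scale. Mitf, Mlana, Cspg4 and both collagen genes named above also had their highest means in CD34+ cells. Other genes of the same marker lists were divided. Col3a1, Lum and Pdgfra were highest in CD34+ cells as well, but under the level of silent genes. Pmel and Acta2 were highest in remaining basal cells, and Kit, Dcn and Notch3 in Gata6+Itga6- cells, all but Notch3 under the level of silent genes. The part of such cells in the Abca1 difference was not tested.

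The changes of Abca5 and Abca3 were smaller, and both lay close to the level of silent genes. For Abca5, a lysosomal member, the CD34+ arrays read 2.18, 2.31 and 2.72 and the remaining basal arrays 1.65, 1.68 and 1.75, without overlap. Gata6+Itga6+ arrays read 1.86, 2.13 and 1.80 and Gata6+Itga6- arrays 1.71, 2.05 and 2.02. The log2 change between CD34+ and remaining basal cells was 0.71 (SE 0.16, adjusted p = 0.0272), but no population mean of Abca5 exceeded the level of silent genes, so no fold is given. This call was lost without CD34+ replicate 2 (0.0536) or 3 (0.0796) and without remaining basal replicate 1 (0.0875), 2 (0.0868) or 3 (0.0540). Abca3, a phospholipid transporter best known from lung surfactant, read 2.94, 3.12 and 2.75 in Gata6+Itga6- cells, above all other arrays. Its other readings were 2.20, 2.24 and 2.39 in CD34+ cells, 2.31, 2.10 and 2.26 in remaining basal cells and 2.27, 2.53 and 2.34 in Gata6+Itga6+ cells, which overlapped each other. With the other means under the level of silent genes, the Gata6+Itga6- population exceeded each of the other 3 at least 1.42-fold in Abca3. The log2 change was 0.71 (SE 0.12, adjusted p = 0.00666) against remaining basal cells, 0.66 (SE 0.12, adjusted p = 0.0073) against CD34+ cells and 0.55 (SE 0.12, adjusted p = 0.0372) against Gata6+Itga6+ cells. The last of these was lost in 13 of 23 alternatives. It was lost with the replicate block (0.0749), the array row block (0.0777), array brightness as a covariate (0.0512), only bright probe sets (0.233), dim genes left out (0.157) and the 2 populations alone (0.117). With dim genes left out the other 2 were not called either (0.0502 and 0.0538). The difference from Gata6+Itga6+ cells was also lost without CD34+ replicate 1 (0.0536) or 2 (0.0551), remaining basal replicate 1 (0.0505), Gata6+Itga6+ replicate 1 (0.119) or 3 (0.129), or Gata6+Itga6- replicate 1 (0.111) or 2 (0.113).

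In subfamily B the one called member was Abcb1b, a P-glycoprotein that exports drugs and lipophilic compounds. It read 2.48, 2.33 and 2.89 in remaining basal cells, 1.95, 2.29 and 2.17 in Gata6+Itga6+ cells, 1.90, 1.51 and 1.64 in CD34+ cells and 1.54, 1.48 and 1.57 in Gata6+Itga6- cells. All remaining basal arrays were above all others, and the CD34+ and Gata6+Itga6- arrays overlapped. Remaining basal cells exceeded the level of silent genes, and the gene was at least 1.10-fold lower both in CD34+ cells (log2 change -0.88, SE 0.16, adjusted p = 0.00938) and in Gata6+Itga6- cells (-1.04, SE 0.16, adjusted p = 0.00351). Of all its 22 probe sets, 20 and 22 read lower in these comparisons. Both calls held without any 1 array. The first was lost with the 2 populations alone (0.0828) and the second with the brightest probe set (-1.44, adjusted p = 0.111). Its neighbour Abcb1a, a related P-glycoprotein gene, had a highest mean of 1.81, and whether probes of one also read the other was not tested. Abcb8, a mitochondrial transporter and the member of subfamily B with the highest mean over populations, read 2.42, 2.29 and 2.63 in CD34+ cells and 2.17, 2.17 and 2.09 in Gata6+Itga6- cells. Its remaining basal arrays read 2.10, 2.38 and 2.28 and its Gata6+Itga6+ arrays 2.51, 2.36 and 2.12, and it was called in no pair.

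**Figure D2:**
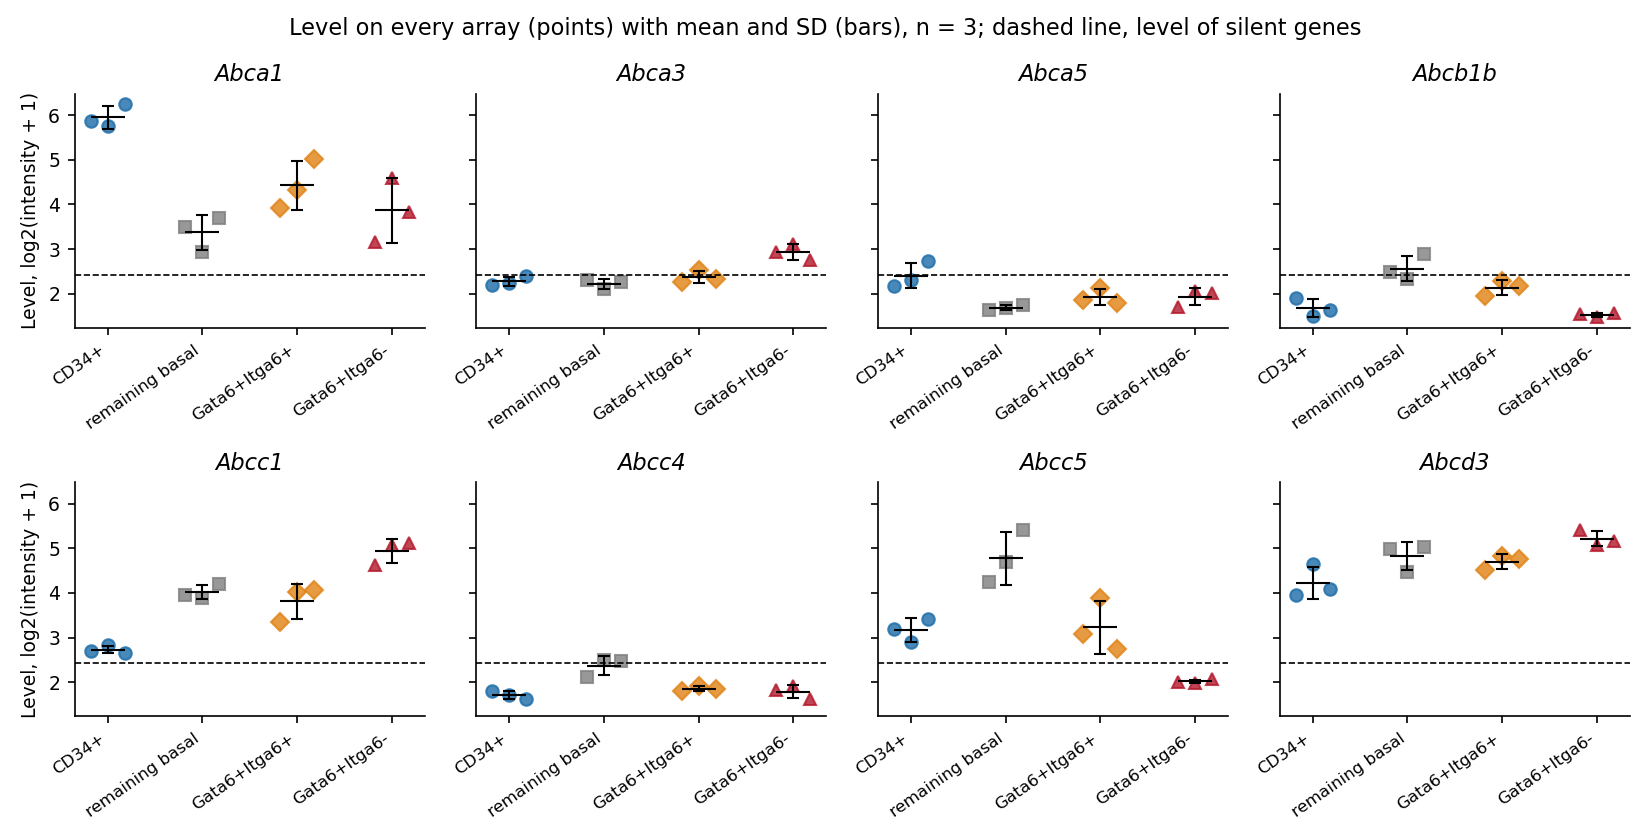
Level of the 8 called members on every array (points), with the mean and SD of each population (n = 3) as bars, on the log2(intensity + 1) scale, and the level of silent genes (2.42) dashed. The CD34+ arrays stand above the others for Abca1, the remaining basal arrays for Abcb1b and Abcc5, and the Gata6+Itga6- arrays for Abca3 and Abcc1.

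Abcc1 (MRP1), which exports glutathione conjugates and leukotrienes, was called in 5 of the 6 pairs, more than any other member. It read 4.62, 5.08 and 5.12 on the Gata6+Itga6- arrays, 3.96, 3.89 and 4.20 on those of remaining basal cells, 3.36, 4.02 and 4.07 on the Gata6+Itga6+ arrays and 2.70, 2.82 and 2.66 on those of CD34+ cells. The Gata6+Itga6- arrays were above and the CD34+ arrays below all others, while the 2 middle populations overlapped (log2 change -0.20, SE 0.20, adjusted p = 0.782). Gata6+Itga6- cells were 4.63-fold above CD34+ cells (log2 change 2.21, SE 0.20, adjusted p = 5.82e-05). This call held under all 23 alternatives, and 35 of all 37 probe sets read higher. Gata6+Itga6- cells were also 2.18-fold above Gata6+Itga6+ cells (log2 change 1.13, SE 0.20, adjusted p = 0.0147) and 1.90-fold above remaining basal cells (0.92, SE 0.20, adjusted p = 0.0242). The first of these was lost without Gata6+Itga6- replicate 2 (0.0517) or 3 (0.0642). The second failed when Gata6+Itga6- replicate 2 (0.0939) or 3 (0.0935) or remaining basal replicate 1 (0.0774) or 2 (0.0915) was left out. CD34+ cells were 2.44-fold below remaining basal cells (log2 change -1.29, SE 0.20, adjusted p = 0.00366) and Gata6+Itga6+ cells were 2.12-fold above CD34+ cells (1.09, SE 0.20, adjusted p = 0.0117). The latter was lost without Gata6+Itga6+ replicate 3 (0.0503). Of the 5 calls only that between Gata6+Itga6- and CD34+ cells held with the brightest probe set. With the 2 populations alone, both calls that involve Gata6+Itga6+ cells were lost. Only bright probe sets lost the call between Gata6+Itga6- and remaining basal cells.

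Abcc5 (MRP5), an exporter of cyclic nucleotides and other organic anions, ran the other way between remaining basal and Gata6+Itga6- cells. It read 4.24, 4.69 and 5.41 in remaining basal cells, 3.20, 2.89 and 3.42 in CD34+ cells, 3.08, 3.89 and 2.74 on the Gata6+Itga6+ arrays and 2.00, 1.99 and 2.07 on the Gata6+Itga6- arrays. Remaining basal arrays were above all others, Gata6+Itga6- arrays were below all others and under the level of silent genes, and the other 2 populations overlapped. Gata6+Itga6- cells were at least 5.12-fold below remaining basal cells (log2 change -2.76, SE 0.33, adjusted p = 0.00061), a call that held under all 23 alternatives. All its 41 probe sets read lower there, 32 of them by at least 1 on the log2 scale. CD34+ cells were 3.05-fold below remaining basal cells (log2 change -1.61, SE 0.33, adjusted p = 0.0174), which was lost without CD34+ replicate 2 (0.0658) or remaining basal replicate 2 (0.0502). Gata6+Itga6+ cells were 2.92-fold below remaining basal cells (log2 change -1.55, SE 0.33), with an adjusted p of 0.0553. That difference was called without remaining basal replicate 1 (0.0465) or Gata6+Itga6+ replicate 2 (0.0214). It was also called with no pseudocount (0.0461), the mean of probe sets (0.0146), only bright probe sets (0.0278), quantile normalization (0.00389) or dim genes left out (0.021). In the other alternatives it was not called. Within Gata6+ cells the log2 change without Itga6 was -1.22 (SE 0.33, adjusted p = 0.0899), which was not called. It was called without remaining basal replicate 3 (0.0454) and in other settings, such as the mean of probe sets (0.0276) or quantile normalization (0.0378). Between Gata6+Itga6- and CD34+ cells the log2 change was -1.15 (SE 0.33, adjusted p = 0.0626), also not called. Among other settings it was called with the brightest probe set (0.0159) or the 2 populations alone (0.00943). Neither change was called with a pseudocount of 8, array brightness as covariate or either block.

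Abcc4 (MRP4), which exports prostaglandins and cyclic nucleotides, was also highest in remaining basal cells. Its arrays read 2.13, 2.51 and 2.47 there, 1.80, 1.71 and 1.63 in CD34+ cells, 1.81, 1.92 and 1.84 for Gata6+Itga6+ cells and 1.84, 1.91 and 1.62 for the Gata6+Itga6- population. Remaining basal arrays were above all others, and the Gata6+Itga6- arrays overlapped those of both other populations. The log2 change against remaining basal cells was -0.66 (SE 0.12, adjusted p = 0.0106) in CD34+ cells and -0.58 (SE 0.12, adjusted p = 0.0214) in Gata6+Itga6- cells. Of all its 34 probe sets, 33 read lower in each comparison. No population mean of the gene exceeded the level of silent genes. The second call failed when Gata6+Itga6- replicate 1 (0.0542) or 3 (0.0838) or remaining basal replicate 2 (0.0866) or 3 (0.0702) was left out. Thy1, at 3.88 ± 1.06 (SD, n = 3), was also highest in remaining basal cells, but no other T cell marker measured was. Cd3e read 2.20 there against 2.73 for the Gata6+Itga6- population, and Cd3g read 1.34 against 2.48. Cd2 and Cd3d were under the level of silent genes in every population. The mean over these markers, Thy1 included, had nearly the same range in both populations. The part of T cells in the Abcc4 changes was not tested. The other 7 members of subfamily C, among them the potassium channel regulators Abcc8 and Abcc9, were called in no pair.

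**Figure D3:**
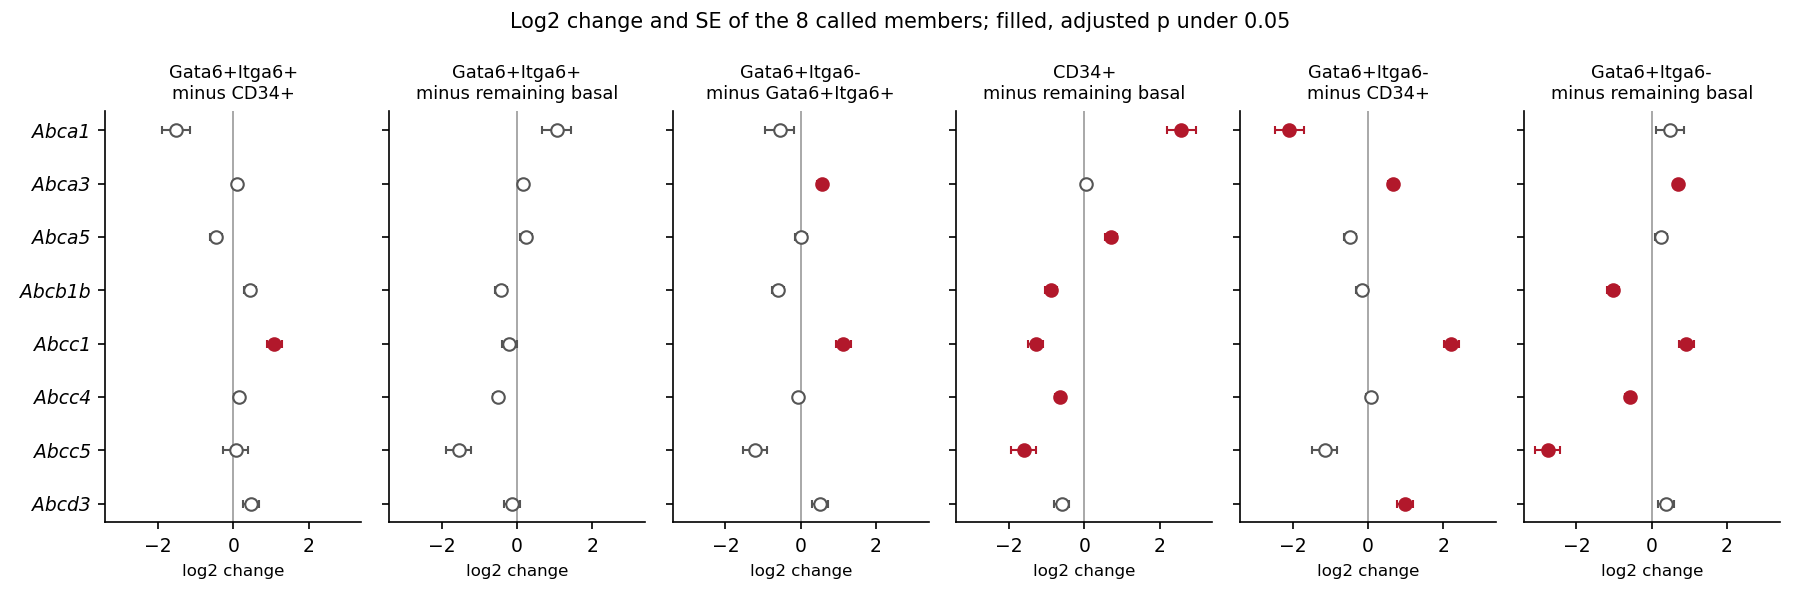
Log2 change of the 8 called members in each of the 6 pairs of populations (points), with the SE of the model as bars and filled points where the adjusted p was under 0.05. The Abcc1 points are filled in 5 of 6 panels, and no point is filled for Gata6+Itga6+ against remaining basal cells.

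**Figure D4:**
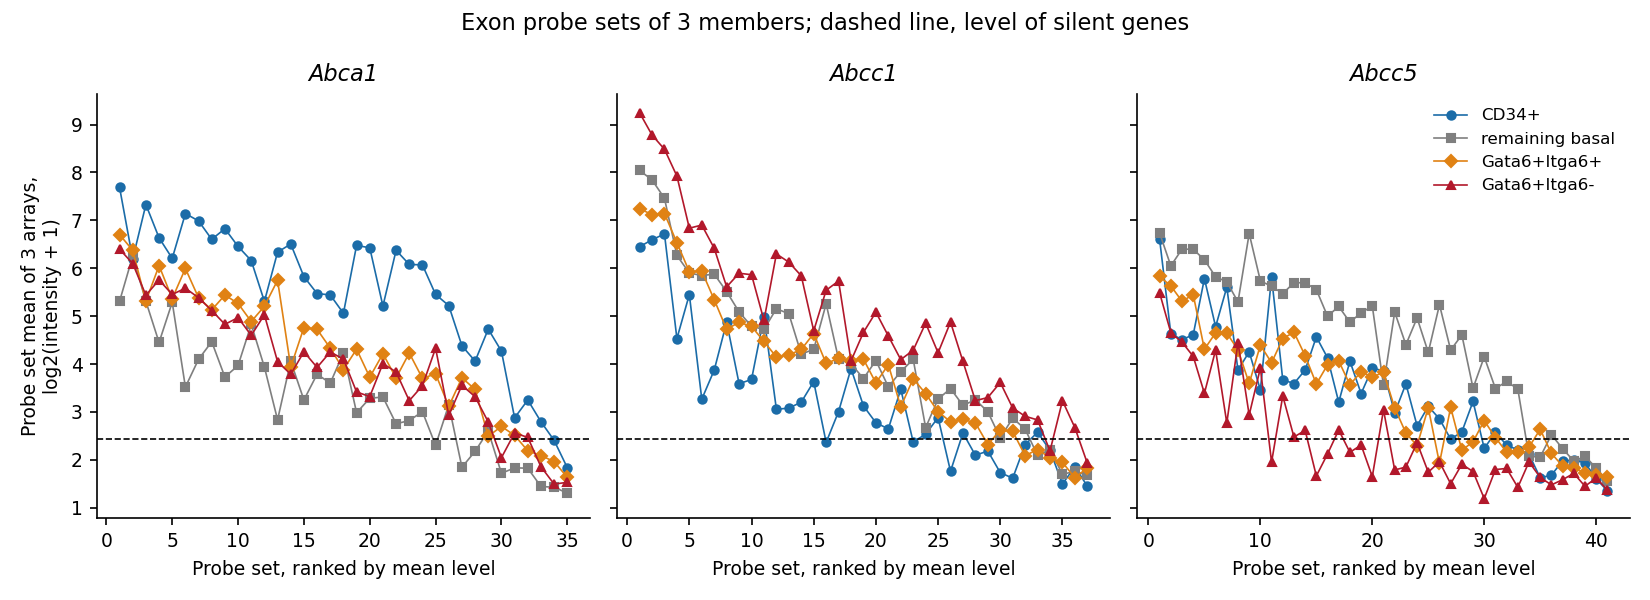
Mean of 3 arrays for each exon probe set of Abca1 (35 probe sets), Abcc1 (37) and Abcc5 (41), ranked by mean level, with 1 line per population and the level of silent genes (2.42) dashed. CD34+ cells lie on top for nearly the whole length of Abca1, Gata6+Itga6- cells for most of Abcc1 and remaining basal cells for most of Abcc5.

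In subfamily D, Abcd3 (PMP70), which carries branched and long-chain acyl groups into peroxisomes, was higher in Gata6+Itga6- than in CD34+ cells. It read 5.40, 5.07 and 5.17 on the Gata6+Itga6- arrays against 3.96, 4.64 and 4.09 for CD34+ cells, without overlap. The remaining basal arrays read 4.99, 4.47 and 5.04 and the Gata6+Itga6+ arrays 4.51, 4.83 and 4.76. The difference was 1.98-fold (log2 change 0.98, SE 0.21, adjusted p = 0.015), and it was lost without CD34+ replicate 1 (0.0554) or 3 (0.0596) or Gata6+Itga6- replicate 1 (0.0626). It was also lost with the brightest probe set (0.411). Abcd4, which takes part in cobalamin export from lysosomes, had a highest mean of 3.46, in remaining basal cells, and was called in no pair.

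The soluble members of subfamilies E and F were called in no pair. Abce1, the ribosome recycling factor, read 4.36, 4.69 and 4.82 with Itga6 and 3.39, 3.95 and 3.79 without it in Gata6+ cells. The CD34+ arrays read 2.90, 3.49 and 4.07 and the remaining basal arrays 2.83, 2.77 and 4.44, so that 1 remaining basal array lay within the Gata6+Itga6+ range. Its log2 change between Gata6+Itga6+ and remaining basal cells was 1.28 (SE 0.43, adjusted p = 0.268), and it was called without remaining basal replicate 3 (1.82, adjusted p = 0.0231). Abcf1, which acts in translation initiation, read 5.13, 5.49 and 6.06 in CD34+ cells, 5.30, 4.65 and 5.64 in remaining basal cells, 5.40, 5.07 and 5.67 for Gata6+Itga6+ cells and 5.45, 5.38 and 4.73 for the Gata6+Itga6- population. These ranges overlapped in every pair, and the population means lay between 5.19 and 5.56.

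Subfamily G, which holds sterol and drug exporters, had no called member. Abcg1, which exports cholesterol to lipoproteins, read 2.70, 2.25 and 2.93 in remaining basal cells, 2.01, 1.97 and 2.11 in CD34+ cells, 2.35, 2.38 and 2.48 for Gata6+Itga6+ cells and 2.09, 2.35 and 1.99 for the Gata6+Itga6- population. The remaining basal and CD34+ arrays did not overlap, and the log2 change between them was -0.60 (SE 0.16, adjusted p = 0.0721). It was called without remaining basal replicate 2 (-0.78, adjusted p = 0.0109). Abcg2 (BCRP), the pump behind the dye-excluding side population, was named after its values were seen. Its arrays read 1.39, 2.62 and 1.89 in Gata6+Itga6+ cells, 1.79, 1.86 and 1.88 in CD34+ cells, 1.61, 1.69 and 2.00 in remaining basal cells and 1.39, 1.32 and 1.38 in Gata6+Itga6- cells. Of the 28 members that were neither called nor above the level of silent genes, its population means differed most, by 0.60, against a median of 0.086. Of its 18 probe sets, 7 exceeded the level of silent genes. The brightest of them averaged 4.18 in remaining basal cells, 3.45 in Gata6+Itga6+ cells, 2.75 in CD34+ cells and 1.91 in Gata6+Itga6- cells.

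Some members lie next to each other in the genome. By gene order in the GRCm38.p6 reference table, 14 of the 46 members form 5 runs of adjacent protein-coding genes. These are Abca8b, Abca8a, Abca9, Abca6 and Abca5; Abca17 and Abca3; Abcg5 and Abcg8; Abcb1a, Abcb1b and Abcb4; and Abca14 and Abca15. In the 3 runs with a called member, Abca5, Abca3 and Abcb1b were the called ones, and no adjacent member was called or exceeded the level of silent genes.

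Genes of the pathways around the transporters were read from 9 lists chosen for this description. Tap1 and Tap2, ABC proteins named outside the symbol rule, carry peptides to MHC class I. Tap1 was at 4.49 ± 0.23 (SD, n = 3) in Gata6+Itga6- and 3.03 ± 0.49 in CD34+ cells (log2 change 1.46, SE 0.36, adjusted p = 0.0325). Tap2 was at 3.38 ± 0.092 in Gata6+Itga6-, 2.75 ± 0.32 in CD34+ and 2.44 ± 0.13 in remaining basal cells, with log2 changes of 0.63 (SE 0.16, adjusted p = 0.0353) and 0.94 (SE 0.16, adjusted p = 0.00586). Cftr, the chloride channel of the family, was between 1.29 and 1.47 in all populations. Of 15 peptide-loading genes measured, which include Tap1 and Tap2, 5 were higher in Gata6+Itga6+ than in CD34+ cells, where 4.59% of all genes were called in either direction, and 7 in Gata6+Itga6- than in CD34+ cells, where 7.96% were. In CD34+ against remaining basal cells 2 were lower, against 5.00% of all genes called. Tap2 alone was called between Gata6+Itga6- and remaining basal cells, against 5.11% of all genes, and none in the other 2 pairs. The proteasome subunit Psmb8, at 5.27 ± 0.60 in Gata6+Itga6+ and 2.98 ± 0.67 in CD34+ cells, had a log2 change of 2.30 (SE 0.37, adjusted p = 0.00586).

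Of 16 genes around sterol efflux and the LXR receptors, at most 4 were called in any pair. These and the lists that follow can be read against the same shares of all genes. Set against CD34+ cells, Gata6+Itga6+ cells had 3 of them higher and 1 lower, and the Gata6+Itga6- population had 2 higher and 1 lower. In CD34+ against remaining basal cells, where Abca1 was higher, 1 was higher and 1 lower. The higher one was Pltp, a phospholipid transfer protein of plasma lipoproteins, at 3.81 ± 0.36 and 2.51 ± 0.19 (log2 change 1.30, SE 0.20, adjusted p = 0.00307). Cyp27a1, which makes oxysterols that bind these receptors, was at 5.04 ± 0.27 without Itga6 and 4.53 ± 0.49 with it in the Gata6+ populations, but at 2.31 ± 0.12 in CD34+ and 2.28 ± 0.076 in remaining basal cells, both under the level of silent genes. Of 22 genes of xenobiotic sensing and conjugation, Gata6+Itga6- cells had 3 higher and 2 lower against CD34+ cells and 4 higher against remaining basal cells, and none was called within Gata6+ cells. The aryl hydrocarbon receptor gene Ahr was at 5.88 ± 0.26 in Gata6+Itga6- and 2.70 ± 0.31 in CD34+ cells (log2 change 3.17, SE 0.24, adjusted p = 1.61e-05). Gstm5, a glutathione transferase, was at 8.53 ± 0.27 in Gata6+Itga6- cells against 4.61 ± 0.17 in remaining basal cells (log2 change 3.93, SE 0.26, adjusted p = 1.29e-05).

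Of 15 uptake carriers for drugs and anions, 3 were lower and 1 higher in CD34+ than in remaining basal cells, and likewise in Gata6+Itga6- against remaining basal cells. Slco2a1, a prostaglandin uptake carrier, was at 6.92 ± 0.38 in remaining basal, 5.71 ± 0.38 in Gata6+Itga6+, 5.21 ± 0.18 in CD34+ and 2.73 ± 0.12 in Gata6+Itga6- cells. Its log2 change between Gata6+Itga6- and remaining basal cells was -4.19 (SE 0.22, adjusted p = 3.19e-06). The organic cation carrier Slc22a4 was at 4.46 ± 0.32 in remaining basal and 2.03 ± 0.15 in CD34+ cells (log2 change -2.43, SE 0.23, adjusted p = 0.000135). Among 16 peroxisomal and acyl chain genes only the elongase Elovl1 was called. It was higher in Gata6+Itga6- than in CD34+ cells (log2 change 1.74, SE 0.32, adjusted p = 0.00641) and than in remaining basal cells (1.59, SE 0.32, adjusted p = 0.0156). Of 14 mitochondrial iron and heme genes only Alad, an enzyme of heme synthesis, was called, at 4.89 ± 0.094 in Gata6+Itga6+ cells, which was higher than in CD34+ cells (3.14 ± 0.068) and in Gata6+Itga6- cells (3.84 ± 0.41). Of 13 genes of translation and ribosome recycling only the initiation factor Eif2s1 was called, and within Gata6+ cells it was lower without Itga6 (log2 change -2.57, SE 0.56, adjusted p = 0.0357). None of the 3 genes of potassium channels linked to Abcc8 and Abcc9 was called in any pair.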

How the data were processed

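On 12 arrays the authors measured 235932 exon probe sets, and they deposited intensity values made with RMA in Affymetrix Power Tools on mm9, according to the submitters' processing notes. Tool versions are not given in the sources used here, and the linear scale was read from the values, so all levels and folds rest on it. Probe sets with 1 symbol (221205) were used, and symbols were updated with GRCm38.p6 tables, which also gave promoters. A gene's level was the median over its probe sets of log2(intensity + 1). The added 1 shrinks changes of dim genes.

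The 4 population means were estimated jointly from the 12 arrays in limma 3.58.1 under R 4.3.3 (prior degrees of freedom 2.12, residual 8), and Benjamini-Hochberg adjusted p-values over 17853 genes were called under 0.05. Folds are back-transformed log2 changes, or a bound against the level of silent genes where the lower mean was under it. An exact permutation test of 3 against 3 arrays cannot go below 0.1 and was not used. The p-values measure the spread between biological replicates as labelled.

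1 further gene of the family is not reported here. The members and lists were chosen with earlier results of these data known. Members called in any pair, the member of each subfamily with the highest mean, and of each pathway list up to 2 called genes with the smallest adjusted p were named, with Tap1, Tap2, Cftr and the sort genes. Psmb8 and Tap2 were equal in their smallest adjusted p. The procedure was tested on simulated data drawn independently for each gene and array, which held no batches, pairing or mixtures of cells. Alternatives covered the pseudocount, the summary over probe sets, normalization, a filter, covariates, blocks and each array left out.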

Additional observations from a re-analysis of the deposited data

How the results depend on the processing

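The 18 calls had 409 alternative values in all, of which 352 kept the direction and the call, 56 kept the direction but were no longer called, and 1 changed sign. The one that changed sign was Abca5 between CD34+ and remaining basal cells, at -0.078 with the brightest probe set in place of the median. Of the 18 calls, 10 held in every fit that left out 1 array. With the brightest probe set 6 of the 18 held, with the 2 populations alone 10, and all 18 with either other pseudocount, the mean of probe sets or quantile normalization. Under either block 17 held, and the one lost was Abca3 between Gata6+Itga6- and Gata6+Itga6+ cells, which was lost in 13 of 23 alternatives. For Abcg2 the difference of Gata6+Itga6- from remaining basal cells was called with the brightest probe set (log2 change -2.28, adjusted p = 0.00172), against 0.544 with all probe sets.

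For Gata6+Itga6+ against CD34+ cells the count of 1 became 2 with no pseudocount, a pseudocount of 8, the mean of probe sets, quantile normalization or dim genes left out. It was 3 with only bright probe sets or with array brightness as covariate, 0 with the brightest probe set or the 2 populations alone, and 1 to 2 with 1 array left out. For Gata6+Itga6+ against remaining basal cells the count of 0 became 2 with the mean of probe sets or only bright probe sets, 1 with no pseudocount, quantile normalization or dim genes left out, and 0 to 2 with 1 array left out. For Gata6+Itga6- against Gata6+Itga6+ cells the count of 2 became 4 with the mean of probe sets, 1 with array brightness, 0 with the 2 populations alone, and 0 to 4 with 1 array left out. For CD34+ against remaining basal cells the count of 6 became 3 with the brightest probe set or dim genes left out and 2 with the 2 populations alone. With the brightest probe set only Abcb1b was kept, and Abcg2 and Abcg3 were newly called. For Gata6+Itga6- against remaining basal cells the count of 5 became 3 with the brightest probe set, 2 with dim genes left out, and 3 to 6 with 1 array left out. Here the brightest probe set kept Abca3 and Abcc5 and newly called Abcg2. Leaving out dim genes removes members from the test. The cause of the other shifts was not tested.

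With the replicate number as a block (replicate block) the count was 2 for Gata6+Itga6+ against CD34+ cells and 1 for Gata6+Itga6- against Gata6+Itga6+ cells, and so it was with the array row letter as a block. Same-numbered arrays of different populations deviated together with correlations of -0.144 to 0.279 (median 0.00892, 5 of 18 pairs over 0.1). With so few arrays per population, these correlations cannot tell whether same-numbered samples came from the same mice. Whether they did was not given in the sources used here. Signal close to the level of silent genes limits what can be said of most members.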
